A study of Homo sapiens with 64 samples.

Results

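Nucleolar ribosome biogenesis genes encode the proteins that make and fold ribosomal RNA precursors in the nucleolus, and 58 of them were followed here in lung cancer cells treated with a MYC inhibitor, a class IIa histone deacetylase inhibitor or both. The genes were taken from a fixed list of symbols, which was chosen with earlier results of these data known. Each of the 58 matched 1 identifier among the 60649 genes of the count table. All 58 passed the filter on low counts in every line. The 64 RNA-seq libraries come from 4 established lines of non-small cell lung cancer, which are named H460, H838, H1703 and H1755. The title of 1 library, TMP195 replicate 1, names H838 while another of its labels reads H883, and it was kept with H838. Each line had 4 libraries of each of 4 groups, harvested 24 hours after treatment. The groups were MYCi975 at 5 µM, a small molecule that binds MYC, TMP195 at 25 µM, a class IIa histone deacetylase inhibitor, Combo, which received both compounds, and Vehicle, which received DMSO. All groups were grown in the same serum-containing medium. The labels number the replicates 1 to 4 without saying whether they were separate cultures, so the p-values measure the spread between these libraries, which may be technical.

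A ribosome is built from ribosomal RNA and ribosomal proteins. RNA polymerase I transcribes a long precursor in the nucleolus, and the small subunit processome folds and cleaves it while box C/D and box H/ACA small nucleolar ribonucleoproteins add methyl groups and pseudouridines. Separate sets of helicases, nucleases and scaffold proteins then mature the small and large subunit precursors, and the RNA exosome trims and degrades the by-products. MYC is known for driving transcription of many of these genes, with MAX, through the E-box letters CACGTG in their promoters. The 58 genes were ordered by role into 7 scaffold and ribosomal DNA-linked proteins, 3 box C/D proteins, 4 box H/ACA proteins, 27 small subunit factors, 16 large subunit factors and 1 exosome subunit.

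RefSeq promoter windows were found for 48 of the 58 genes. They run from 250 bases before the transcription start to 50 bases after it on GRCh38.p14. The letters CACGTG, a palindrome that reads the same on both strands, occurred in 18 of the 48 windows (37.5%), against 8.34% of 22199 windows of protein-coding genes and 7.26% of all 35116 windows. The related letters CACGCG or CGCGTG, which are reverse complements and so cover both strands, occurred in 14 (29.2%), against 14.3% of coding windows. TATAAA, searched on both strands, occurred in 1 (2.08%), against 9.47% of coding windows. The median GC content was 62.3% both in these genes and in all coding windows. Of 22 CACGTG positions, 19 began within 100 bases of the start. The 5 windows below are shown because they belong to genes whose values follow and carry CACGTG, which is in capitals. They are read 5′ to 3′ on the gene's strand and stop 30 bases after the start: MRTO4 at chr1:19251555-19251834 on the plus strand, UTP20 at chr12:101279855-101280134 on the plus strand, FBL at chr19:39846350-39846629 on the minus strand, NOL6 at chr9:33473895-33474174 on the minus strand, and EXOSC5 at chr19:41397330-41397609 on the minus strand.
MRTO4: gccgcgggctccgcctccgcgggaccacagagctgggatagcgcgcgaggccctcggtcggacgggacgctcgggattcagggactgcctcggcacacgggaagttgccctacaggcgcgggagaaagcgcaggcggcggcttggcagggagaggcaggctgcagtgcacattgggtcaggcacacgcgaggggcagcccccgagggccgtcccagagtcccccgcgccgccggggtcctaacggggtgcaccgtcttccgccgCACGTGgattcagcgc
UTP20: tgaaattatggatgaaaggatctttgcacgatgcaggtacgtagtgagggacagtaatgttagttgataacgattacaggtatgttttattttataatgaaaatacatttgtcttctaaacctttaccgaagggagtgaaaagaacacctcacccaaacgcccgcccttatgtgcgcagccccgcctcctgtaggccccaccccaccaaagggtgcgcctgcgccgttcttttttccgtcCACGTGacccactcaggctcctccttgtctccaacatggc
FBL: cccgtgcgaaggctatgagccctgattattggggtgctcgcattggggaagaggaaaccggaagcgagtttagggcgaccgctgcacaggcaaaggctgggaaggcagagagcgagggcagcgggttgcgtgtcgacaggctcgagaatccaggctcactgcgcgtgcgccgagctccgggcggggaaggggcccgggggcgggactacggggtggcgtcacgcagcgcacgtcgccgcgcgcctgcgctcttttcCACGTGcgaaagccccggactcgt
NOL6: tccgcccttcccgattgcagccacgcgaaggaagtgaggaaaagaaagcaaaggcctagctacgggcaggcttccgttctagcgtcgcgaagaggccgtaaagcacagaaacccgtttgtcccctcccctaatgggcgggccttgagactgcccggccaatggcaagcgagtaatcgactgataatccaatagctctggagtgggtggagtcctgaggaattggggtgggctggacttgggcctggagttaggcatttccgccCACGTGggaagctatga
EXOSC5: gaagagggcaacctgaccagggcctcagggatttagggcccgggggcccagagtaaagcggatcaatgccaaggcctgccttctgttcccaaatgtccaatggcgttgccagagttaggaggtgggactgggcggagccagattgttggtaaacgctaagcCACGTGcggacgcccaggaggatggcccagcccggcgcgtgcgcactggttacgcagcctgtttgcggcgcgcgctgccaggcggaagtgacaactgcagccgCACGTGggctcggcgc
Counting from 1 at the first transcribed base, CACGTG began at base 15 in MRTO4, 7 in FBL and 14 in NOL6, and 10 bases before the start in UTP20. EXOSC5 held the letters at base 15 and 89 bases before the start. A match is a run of letters and not a shown binding site.

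The 64 libraries held 17352066 to 34236552 counts. Their column names and counts fall into 4 library batches, of 36, 7, 5 and 16 libraries, and the last holds every replicate 4. In the batch of 7, all from H460, reads in overlapping genes appear to have been counted: EEF1G, which overlaps a neighbour, had 638.9 to 759 CPM (counts scaled by TMM library size) there and 0 in the other libraries. The 7 are replicates 1 and 2 of MYCi975, TMP195 and Vehicle and replicate 1 of Combo, so they are spread unevenly over the H460 groups. The batch of 5 holds TMP195 replicates 1 to 3 and MYCi975 replicate 3 of H838, and Combo replicate 2 of H1703. So 3 of the 4 TMP195 libraries of H838 are in it, and no vehicle library of H838 or H1703 is. KRT8 and KRT18, keratins that mark epithelial cells, were present in all libraries, at 14.2 CPM or more, while EPCAM and CDH1, which mark epithelial junctions, stayed at or below 0.944 CPM in H460 and H1703. KRT19, another keratin, was at 580 CPM or more in H460 and at or below 6.85 CPM in the other lines. Of the mesenchymal state markers, VIM was at 401.5 CPM or more in all libraries. CDH2 was at 263.6 CPM or more in H1755 and at or below 23.8 CPM elsewhere. FN1 was at 1760 to 3766 CPM in H460 and at 20 to 625 CPM elsewhere. Leukocyte, endothelial and fibroblast markers did not exceed 32.3 CPM.

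In vehicle-treated cells the genes spanned a wide range of levels. Per kilobase of exon, NPM1, a nucleolar chaperone, averaged 903 CPM over the 4 lines and ranked 16 among 19878 protein-coding genes. NCL, nucleolin, averaged 205.8 CPM per kilobase and ranked 75. DDX21, an RNA helicase, averaged 131 CPM per kilobase and ranked 127, and NOLC1, a phosphoprotein that carries small nucleolar ribonucleoproteins, averaged 113 and ranked 153. GAR1, a box H/ACA protein, averaged 6.51 CPM per kilobase and ranked 5528. DDX47 was the lowest of the 58 with 1.36, a level that depends on how reads in overlapping genes were counted. RCL1, a small subunit processome protein, followed with 2.25 and ranked 9159. Vehicle levels differed between the lines for 54 of the 58 genes by edgeR's quasi-likelihood test with adjusted p below 0.05, where 87.7% of all genes tested did. The exceptions were NOL9 (adjusted p = 0.896), GAR1 (0.8996), NHP2 (0.132) and RRS1 (0.0883). H460 was the highest line for 33 of the 58 and H1755 the lowest for 26. Part of the H460 count is 4 genes whose levels depend on overlap counting, described below. NPM1 had 1502 CPM per kilobase in H460, 914 in H1703, 707 in H838 and 489.5 in H1755. The genes did not share 1 order of lines: UTP4, a small subunit processome protein, was 4.90 times as high in H838 as in H1703, with 27.8 and 5.68 CPM per kilobase. NIP7, a large subunit factor, was highest in H838 with 20.02 CPM per kilobase and lowest in H460 with 6.92. NOL9 differed least between the vehicle groups, with 16.02 to 16.7 CPM per kilobase in all 4.

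Averaged over the 4 lines, Combo lowered a majority of these genes by small amounts in the fit of all 64 libraries. Of the 58, 34 fell and 0 rose at an adjusted p below 0.05, where 11.8% of all genes tested were called lower and 13.6% higher. The genes tested include many at low counts, so their share is not matched to these well expressed genes. The median change of the 58 was -0.18 on the log2 scale, against 0.00 for all genes tested, and 55 of the 58 lay below 0. The 3 that lay above 0 were NOP10, RRP12 and DDX21, at 0.10, 0.03 and 0.00, and none of them passed the test. In the batch of 36 libraries alone, which holds 1 Vehicle library of H460, the median of the 58 was -0.20. The count was 42 with a term for library batch, where 18.1% of all genes were called lower. It was 26 without the 7 overlap-counted H460 libraries, where 10.7% of all genes were called lower. It was 21 without H1703 and 21 without H838, and 13 to 35 when all libraries of 1 replicate number were left out. These last counts are given without the share of all genes called.

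**Figure D1:**
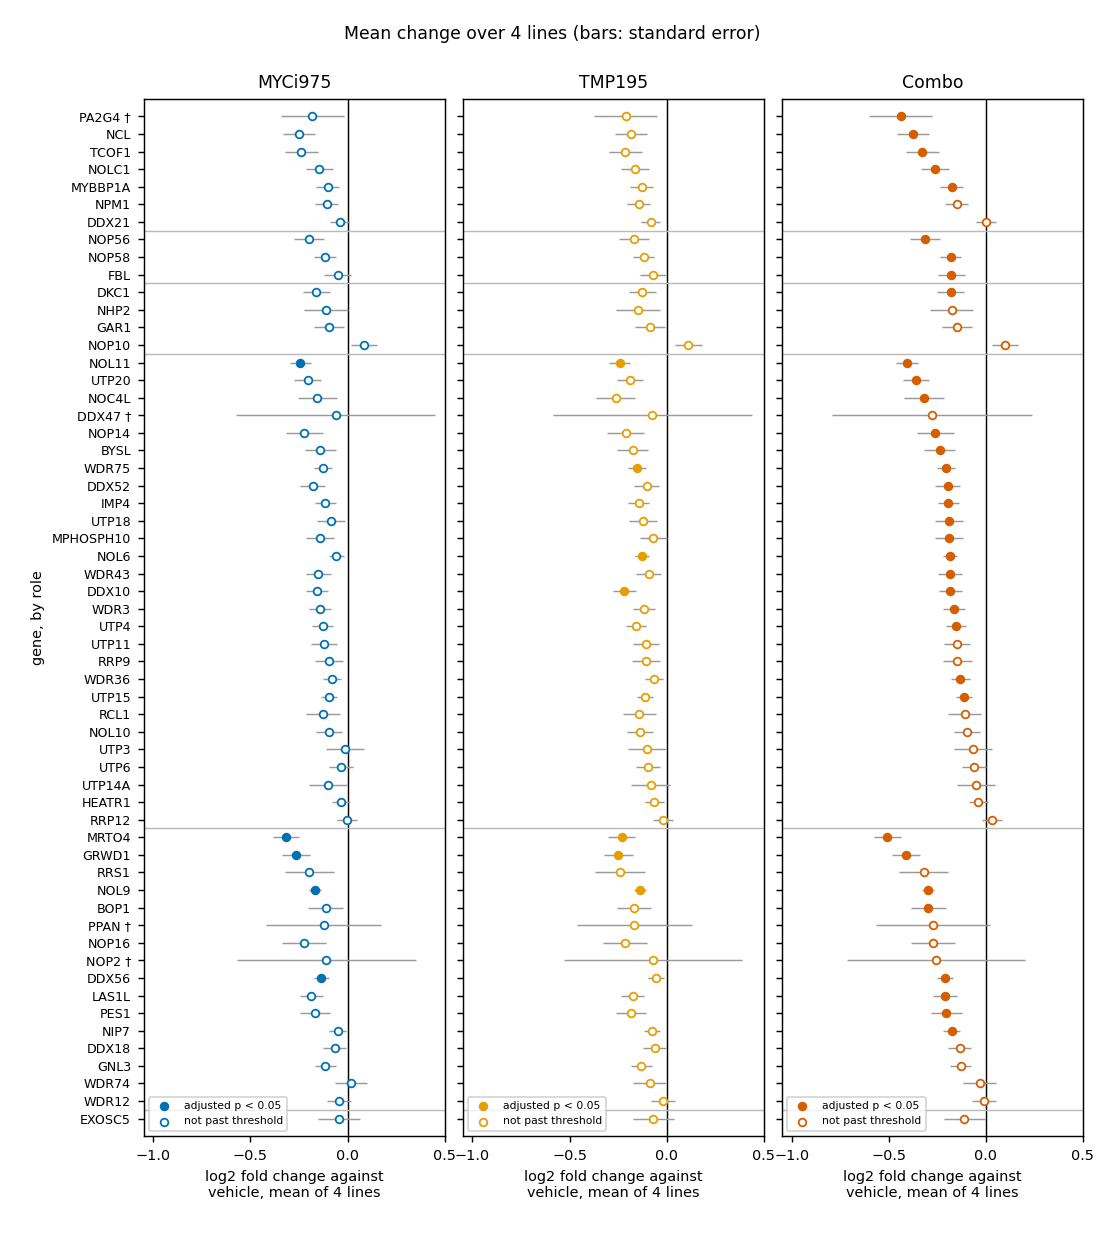
Log2 fold change against vehicle, averaged over the 4 lines (x axis), for each of the 58 genes (y axis, grouped by role), under MYCi975, TMP195 and Combo. Points are estimates with standard errors, filled where the adjusted p was below 0.05, and a dagger marks the 4 genes changed by overlap counting. Most points lie left of 0 in each panel, and 34 are filled for Combo, against 5 for MYCi975 and 7 for TMP195.

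Among the scaffold and ribosomal DNA-linked proteins, 5 of 7 fell under Combo in the mean of the 4 lines. NCL fell by 0.37 (SE 0.0823, adjusted p = 4.02e-04, edgeR). TCOF1, treacle, which links RNA polymerase I transcription to modification of the precursor, fell by 0.33 (SE 0.0842, adjusted p = 0.00236). NOLC1 fell by 0.26 and MYBBP1A, a nucleolar MYB-binding protein, by 0.18. PA2G4 fell by 0.44, but its reads were affected by overlap counting, and with the batch term the fall was 0.35. NPM1 changed by -0.15 (adjusted p = 0.0530) and DDX21 by 0.00 (adjusted p = 1), and neither passed the test. In H1703 libraries NCL was at 798, 892, 838.5 and 777 CPM under Combo, against 1035, 1137, 1320.0 and 1050.0 CPM in vehicle. All 4 Combo values lay below the lowest vehicle value.

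All 3 box C/D proteins fell. These are the core proteins of the particles that methylate ribosomal RNA. NOP56 fell by 0.31 (SE 0.0773, adjusted p = 0.00145), NOP58 by 0.18 (SE 0.0551, adjusted p = 0.0106) and FBL, fibrillarin, the methyltransferase itself, by 0.18 (SE 0.0675, adjusted p = 0.0463). NOP56 also fell in H1703 on its own, by 0.44 (adjusted p = 0.0155), but not without Combo replicate 4 (adjusted p = 0.0544) or Vehicle replicate 3 (0.0593). Of the 4 box H/ACA proteins, which make up the pseudouridine-forming particles, DKC1, dyskerin, the catalytic subunit, fell by 0.18 at the edge of the threshold (adjusted p = 0.04998). NHP2 changed by -0.18, GAR1 by -0.15 and NOP10 by 0.10, with adjusted p-values of 0.282, 0.166 and 0.318. Small nucleolar RNA genes are annotated inside NCL, NOP56, NOP58, NOL11, DKC1, GNL3, PPAN and WDR43, 26 in all, and the counts do not separate them from these genes where they overlap exons.

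Small subunit factors were the largest role, and 17 of 27 fell under Combo. NOL11, which belongs to the part of the processome that binds the precursor first, fell by 0.41 (SE 0.0551, adjusted p = 9.36e-08). UTP20, a large scaffold of the processome, fell by 0.36 (SE 0.0686, adjusted p = 4.84e-05). NOC4L fell by 0.32 (adjusted p = 0.0147) and NOP14, its binding partner in yeast, by 0.26 (adjusted p = 0.0366). The WD40 proteins WDR75, WDR43, WDR3 and WDR36 fell by 0.20, 0.18, 0.16 and 0.13. NOL6 fell by 0.19 and the helicase DDX10 by 0.18. Of the 10 that did not pass the test, HEATR1, RRP12 and UTP14A changed least, by -0.04, 0.03 and -0.05, with adjusted p-values of 0.664, 0.755 and 0.821.

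NOL11 was at 278, 282, 219.8 and 283 CPM under Combo in H1703, against 423, 368, 347 and 435 CPM in vehicle. In H460 it was at 221.5, 248, 217 and 243 CPM under Combo, against 304, 256.5, 289 and 344 CPM in vehicle. The groups did not overlap in either line, and the fall was 0.58 in H1703 (SE 0.109, adjusted p = 4.47e-04) and 0.36 in H460 (SE 0.0846, adjusted p = 0.0109). UTP20 was at 241, 266.5, 230.3 and 268 CPM under Combo in H1703, against 324, 279, 274 and 355 CPM in vehicle, with no overlap. In H460 its values were 389, 441, 398.5 and 494 CPM under Combo, against 509.6, 481, 512 and 670.2 CPM in vehicle, and there the highest Combo library lay above the lowest vehicle library. The UTP20 fall was 0.31 in H1703 (adjusted p = 0.0138) and 0.33 in H460 (adjusted p = 0.0322). It missed the threshold in H1703 without Vehicle replicate 4 (adjusted p = 0.0517), and in H460 without any of Combo replicates 1, 2 and 3 or Vehicle replicate 4 (adjusted p up to 0.0936).

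Of the 16 large subunit factors 8 fell, with MRTO4 at the largest fall of the 58. MRTO4, an assembly factor related to the ribosomal stalk protein P0, fell by 0.51 (SE 0.068, adjusted p = 7.17e-08). GRWD1, a WD40 histone-binding protein that also takes part in large subunit assembly, fell by 0.41 (SE 0.073, adjusted p = 1.53e-05). NOL9, a polynucleotide kinase of precursor processing, fell by 0.30 with the smallest p of the 58 (SE 0.0301, adjusted p = 7.15e-11). BOP1 and PES1, which form a complex with WDR12, fell by 0.30 and 0.20, while WDR12 itself changed by -0.01 (adjusted p = 1). DDX56, a helicase, fell by 0.21, LAS1L, an endonuclease, by 0.21 and NIP7 by 0.18. RRS1 changed by -0.32 but varied more (SE 0.127, adjusted p = 0.0563). GNL3, nucleostemin, changed by -0.13 (adjusted p = 0.0743). The exosome subunit EXOSC5 changed by -0.11 (SE 0.106, adjusted p = 0.528).

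MRTO4 was at 43.5, 43.3, 42.4 and 45.5 CPM under Combo in H1703, against 68.6, 65.9, 76.1 and 70.3 CPM in vehicle. In H838 it was at 65.2, 93.3, 87.8 and 57.1 CPM under Combo, against 104, 110.2, 106 and 99.9 CPM in vehicle. In H460 the Combo libraries were at 63.35, 53.15, 74.2 and 58.9 CPM, against 84.65, 89.8, 90.8 and 78.9 CPM in vehicle. The groups did not overlap in these 3 lines, and in H1755 the highest Combo library, at 87.2 CPM, lay above the lowest vehicle library, at 85.5 CPM. The fall was 0.70 in H1703 (SE 0.1, adjusted p = 4.26e-05) and 0.46 in H460 (adjusted p = 0.0328). In H460 it missed the threshold without any of Combo replicates 1, 2 and 4 or Vehicle replicates 1, 2 and 3 (adjusted p up to 0.0968).

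GRWD1 was at 72.4, 61.6, 58.9 and 59.1 CPM under Combo in H1703, against 102, 93.3, 91.3 and 91.0 CPM in vehicle. In H460 it was at 89.1, 96.2, 91.0 and 78.8 CPM under Combo, against 138, 126.5, 122 and 105 CPM in vehicle. Neither line showed overlap, and the fall was 0.60 in H1703 (adjusted p = 1.55e-04) and 0.47 in H460 (adjusted p = 0.0166), where the call was lost without Vehicle replicate 1 (adjusted p = 0.0577). NOL9 was at 88.6, 87.85, 86.8 and 90.3 CPM under Combo in H1703, against 123, 108, 111.5 and 125 CPM in vehicle. In H460 its Combo libraries were at 98.2, 103, 94.0 and 93.7 CPM, against 119, 113, 121 and 121 CPM in vehicle. Again no Combo library reached a vehicle library, and the fall was 0.42 in H1703 (adjusted p = 3.89e-04) and 0.28 in H460 (adjusted p = 0.00155).

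**Figure D2:**
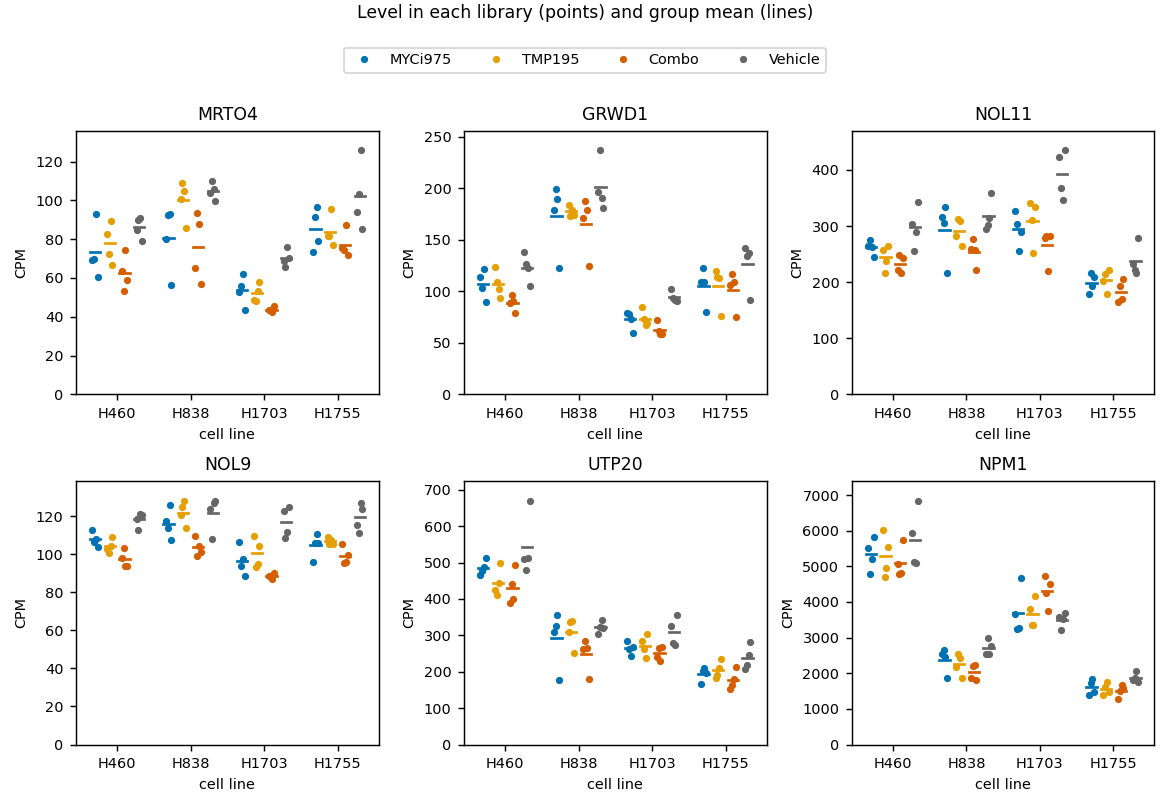
CPM (y axis, from 0) of 6 genes in each library (points, replicates 1 to 4 from left to right) with group means (horizontal lines), by cell line (x axis) and treatment in the order MYCi975, TMP195, Combo, Vehicle. Combo points of MRTO4, GRWD1, NOL11 and NOL9 lie below all vehicle points in H460 and H1703, and NPM1 lies above vehicle under Combo in H1703.

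By line, the calls were spread unevenly. Combo lowered 14 genes and raised 1 in H1703, where 18.5% of all genes tested were called lower and 19.9% higher. It lowered 7 in H460, where 5.98% were called lower and 9.72% higher, and 0 without the 7 overlap-counted libraries, where 0.263% were called lower, which leaves 2 vehicle and 3 Combo libraries there. No gene passed the test in H838 or H1755, where 0.955% and 0.46% of all genes were called lower and 2.29% and 1.23% higher. The median change was -0.17 in H1703, -0.19 in H460, -0.14 in H838 and -0.23 in H1755, so the lines without a call had medians like those of the others. With no adjustment, 12 genes in H838 and 19 in H1755 had p below 0.05. DESeq2 with its adjustment called 2 in H838 and 5 in H1755, where it called 2.16% and 1.36% of all genes lower. The 6 genes MRTO4, GRWD1, NOL9, NOL11, DDX56 and UTP20 were called lower under Combo in both H460 and H1703, and 9 more in 1 line only.

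In H1755 the same-numbered libraries of all groups deviated together (lowest correlation 0.407), and with the replicate number as a block 43 genes fell under Combo there, where 12.3% of all genes were called lower. H838 Combo and vehicle libraries also paired by number (lowest correlation 0.158), and with the block 19 genes fell, where 6.57% of all genes were called lower. With the library batch term 24 fell in H1755 and 19 in H838, where 6.98% and 8.36% of all genes were called lower. The same term gave 26 lower in H460, and 20 lower and 4 higher in H1703, where 14.5% and 22.4% of all genes were called lower. In the batch of 36 libraries alone the counts were 8 in H1755 and 3 in H838, where 2.66% and 3.64% of all genes were called lower. The 3 of 58 in H838 are near the share there. In H1703 18 were lower and 3 higher, where 17.7% of all genes were called lower. In H460 that batch holds 1 Vehicle and 2 Combo libraries, and the median of the 58 was -0.24. Replicate 4 carries both a number and a batch, so pairing and batch cannot be told apart there. All Combo libraries lay below all vehicle libraries for 12 genes in H1703, 11 in H460, 10 in H838 and 9 in H1755, where this held for 15.9%, 7.53%, 5.5% and 3.33% of all genes tested.

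**Figure D3:**
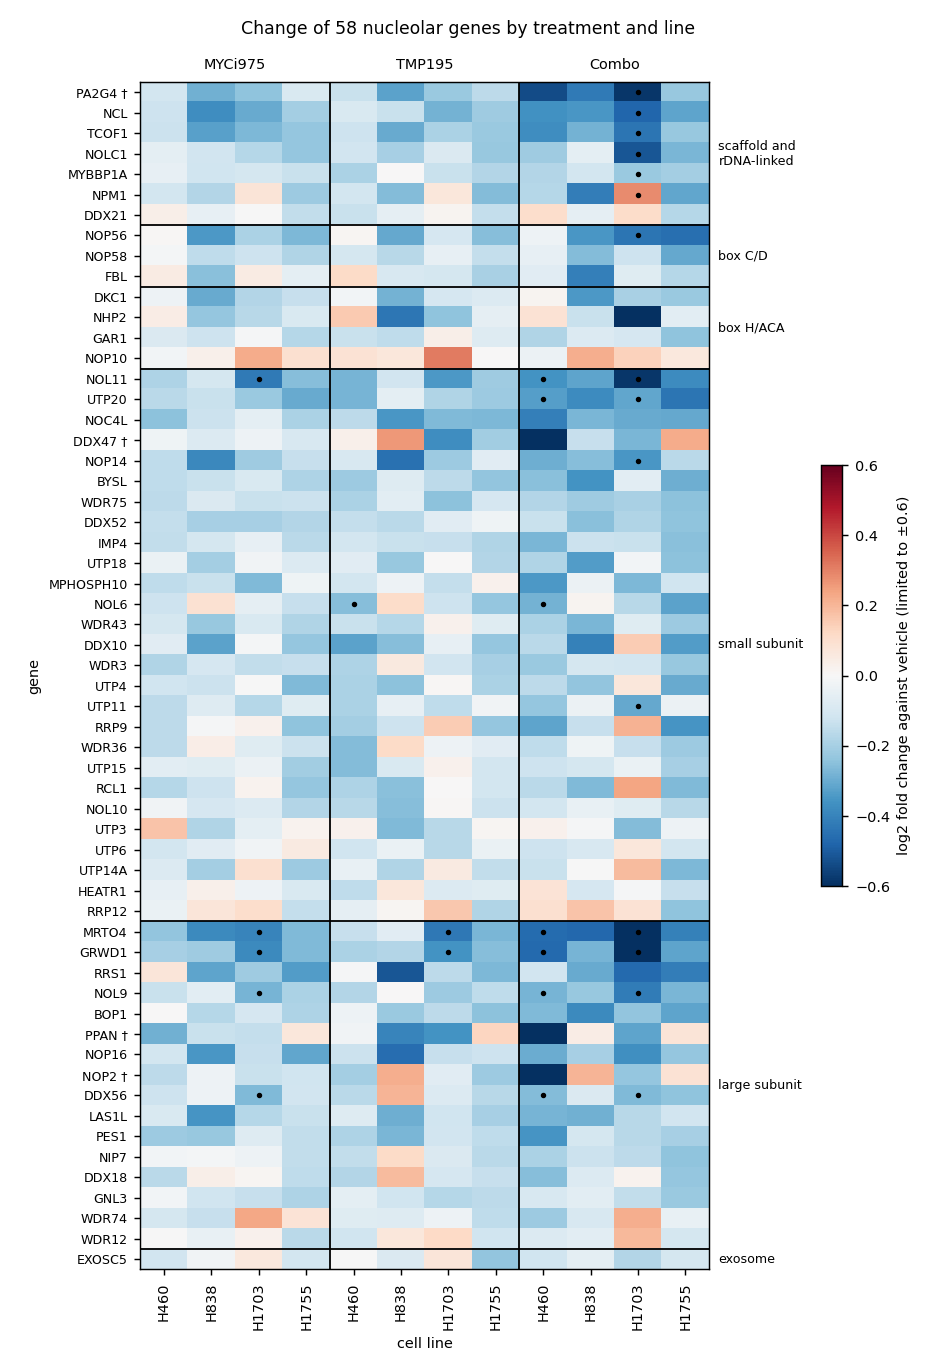
Log2 fold change against vehicle (colour, limited to 0.6 in either direction, blue lower) of the 58 genes (rows, by role) in each line under MYCi975, TMP195 and Combo (columns). Dots mark genes with an adjusted p below 0.05 in that line, and a dagger marks the 4 genes changed by overlap counting. Most cells are blue, dots are most frequent for Combo in H1703, and NPM1 is red there.

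The summed level of the genes is dominated by NPM1 and NCL. Without the 4 overlap-counted genes, the sum was 13400 to 15610 CPM under Combo in H460, against 15290 to 17610 CPM in vehicle. It was 7945 to 10240 CPM under Combo in H838, against 10070 to 12100 CPM in vehicle. In H1755 it was 6483 to 8181 CPM under Combo, against 8281 to 9951 CPM in vehicle, with no overlap. In H1703 it was 10370 to 11820 CPM under Combo, against 10940 to 11570 CPM in vehicle, and the Combo range enclosed the vehicle range. The CPM scale sets each library to the same total, so less of these RNAs per cell and a change in all other RNA cannot be told apart.

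NPM1 was the only gene of the 58 called higher under Combo in a line, and the only one whose Combo change passed the test of a difference between lines. edgeR's F test over the lines gave F = 7.18 (adjusted p = 0.00972), where 8.41% of all genes tested differed. No gene of the 58 passed that test for MYCi975 or TMP195, where 0.154% and 0.519% of all genes did. In H1703 it was at 4722, 4259, 3755 and 4491 CPM under Combo, against 3568, 3214, 3510.0 and 3698 CPM in vehicle. In H838 it was at 1867, 2199, 2223 and 1821 CPM under Combo, against 2531, 2978, 2534 and 2777 CPM in vehicle. In H1755 it was at 1268, 1499, 1672 and 1598 CPM under Combo, against 1806, 1868, 2059 and 1762 CPM in vehicle. The groups did not overlap in these 3 lines, with Combo above vehicle in H1703 and below it in the others.

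The NPM1 change was 0.28 in H1703 (SE 0.11, adjusted p = 0.0488), -0.41 in H838 (SE 0.118, adjusted p = 0.0644), -0.31 in H1755 (SE 0.106, adjusted p = 0.185) and -0.17 in H460 (SE 0.108, adjusted p = 0.347). The H1703 call sat at the threshold and was lost without any of 11 of the 16 libraries of that line: Combo replicates 1, 2 and 4, all 4 Vehicle replicates, MYCi975 replicate 1 and TMP195 replicates 1, 2 and 3 (adjusted p up to 0.131, change 0.24 to 0.31). The difference between lines had an adjusted p of 0.242 without all replicates numbered 1, 0.186 without those numbered 2, and 3.19e-04 with the batch term. NPM1 has near-identical processed copies in the genome, and how reads shared with them were counted is not given in the sources used here. The next smallest p-values for a line difference belonged to DDX10 (adjusted p = 0.0508), which changed by 0.15 in H1703, -0.40 in H838, -0.34 in H1755 and -0.16 in H460, and to NOL6 (adjusted p = 0.0968).

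MYCi975 alone gave smaller changes. In the mean of the 4 lines 5 of the 58 genes fell and 0 rose, where 2.36% of all genes tested were called lower and 4.21% higher. They were MRTO4, which fell by 0.32 (SE 0.0678, adjusted p = 0.00179), GRWD1 by 0.26 (adjusted p = 0.0176), NOL11 by 0.24 (adjusted p = 0.00338), NOL9 by 0.17 (adjusted p = 2.53e-04) and DDX56 by 0.13 (adjusted p = 0.0329). The median of the 58 was -0.12 and 56 lay below 0. NCL, at -0.25, had an adjusted p of 0.0549. By line the same 5 genes fell in H1703, where 4.12% of all genes were called lower and 6.04% higher. None was called in the other 3 lines, where 0.0754% (H460), 0% (H838) and 0.00495% (H1755) of all genes were called lower and 1.01%, 0% and 0.0594% higher. In those lines 4, 4 and 6 of the 58 had p below 0.05 before adjustment, counts given without the share of all genes. DESeq2 called 0 in each, where it called 0.49%, 0.0242% and 0.0643% of all genes lower. All MYCi975 libraries lay below all vehicle libraries for 7 genes in H1703, 2 in H460, 1 in H838 and 3 in H1755, where this held for 7.72%, 1.51%, 1.54% and 0.96% of all genes.

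MRTO4 was at 52.8, 55.8, 62.1 and 43.8 CPM under MYCi975 in H1703, and NOL11 at 328, 304, 256 and 289 CPM, both below every vehicle library given above. The H1703 falls ranged from 0.27 for DDX56 to 0.42 for NOL11. Each of the 5 calls was lost without at least 1 library: MRTO4 without Vehicle replicate 3 (adjusted p = 0.0627), GRWD1 without MYCi975 replicate 4 or Vehicle replicate 1, NOL11 without MYCi975 replicate 3 or Vehicle replicates 1 or 4, NOL9 without MYCi975 replicates 2 or 4 or Vehicle replicates 1 or 4, and DDX56 without any of 8 libraries (adjusted p up to 0.119). With the replicate block, which paired the libraries in H1703 and H1755, 13 genes fell and 1 rose in H1703 and 22 fell in H1755, where 12.1% and 4.51% of all genes were called lower. In H460, where libraries also paired, 1 fell with the block, against 1.59% of all genes. There replicates 1 and 2 of MYCi975, TMP195 and Vehicle are overlap-counted libraries, so pairing and batch cannot be told apart for MYCi975 or TMP195. In the mean of the 4 lines 28 fell with the library batch term, where 9.46% of all genes were called lower. The batch of 36 libraries holds only 1 MYCi975 and 1 Vehicle library of H460. In that batch alone the median of the 58 in the mean of the 4 lines was -0.06, against -0.12 in all libraries.

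TMP195 lowered a comparable number. In the mean of the 4 lines 7 genes fell and 0 rose, where 1.46% of all genes tested were called lower and 2.58% higher. GRWD1 fell by 0.25 (adjusted p = 0.0376), NOL11 by 0.24 (adjusted p = 0.00434), MRTO4 by 0.23 (adjusted p = 0.0364), DDX10 by 0.22 (adjusted p = 0.0181), WDR75 by 0.15, NOL9 by 0.14 and NOL6 by 0.13. The median of the 58 was -0.13 and 57 lay below 0, NOP10 being above it at 0.11 (adjusted p = 0.417). The TMP195 and MYCi975 contrasts share the vehicle libraries, so their likeness is not evidence of a common response. In H1703 TMP195 lowered MRTO4 by 0.43 (adjusted p = 0.0114) and GRWD1 by 0.36 (adjusted p = 0.0286), where 3.57% of all genes were called lower and 6.07% higher. GRWD1 lost the call without any of TMP195 replicates 2, 3 and 4 or Vehicle replicates 1, 2 and 3 (adjusted p up to 0.0917).

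NOL6, whose protein scaffolds the small subunit processome, was the only gene called under TMP195 in H460, where 0.0989% of all genes were called lower and 1.03% higher. It was at 60.3, 60.8, 63.65 and 64.3 CPM under TMP195, against 75.6, 74.95, 76.5 and 71.2 CPM in vehicle, without overlap. The fall was 0.25 (SE 0.0554, adjusted p = 0.0432), and it missed the threshold without any of 12 of the 16 H460 libraries (adjusted p up to 0.1502); the 4 exceptions were MYCi975 replicate 4, Combo replicates 3 and 4 and Vehicle replicate 4. In H838 NOL6 changed by 0.11 (adjusted p = 0.543), and with the library batch term by -0.05. With that term 0 of the 58 were called for TMP195 in H838, where 0.0776% of all genes were called lower. The median of the 58 was -0.07 with the term, against -0.13 without it. None was called in H838 or H1755, where 0.155% and 0.0791% of all genes were called lower and 0.417% and 0.351% higher. There 6 and 5 of the 58 had p below 0.05 before adjustment, again without the share of all genes. DESeq2 called 0 in each, where it called 0.989% and 0.213% of all genes lower. All TMP195 libraries lay below all vehicle libraries for 9 genes in H460, 6 in H1703, 5 in H838 and 1 in H1755, where this held for 2.28%, 8.28%, 5.37% and 1.64% of all genes. With the replicate block, which paired the libraries in all 4 lines, 6 genes fell in H460, only 2 in H838 and as many as 24 in H1755, and in H1703 9 fell and 2 rose, where 1.36%, 3.65%, 5.02% and 10.9% of all genes were called lower. In the mean of the 4 lines 19 fell with the library batch term, where 6.3% of all genes were called lower, and 2 without the 7 overlap-counted H460 libraries, where 0.569% were.

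Combo was then set against each single agent. Against MYCi975, NOL9 was lower by -0.13 (adjusted p = 0.00738) and NOL6 by -0.13 (adjusted p = 0.0465) in the mean of the 4 lines, 2 of 58 where 1.14% of all genes tested were called lower. Against TMP195, MRTO4 was lower by -0.27 (adjusted p = 0.00795), NOL9 by -0.16 (adjusted p = 5.68e-04) and DDX56 by -0.15 (adjusted p = 0.0129), 3 of 58 where 2.91% were. By edgeR with all libraries of a line and neither a block nor a batch term, none of the 58 was called in any line for either comparison. With the replicate block, where the libraries paired by number, NOP56 and NOL6 were lower in H1755 against MYCi975, and NOP56 and UTP20 against TMP195, where 1.22% and 0.43% of all genes were called lower. In H838 the block called MRTO4, FBL and DDX56 lower against TMP195, 3 of 58 where 3.4% of all genes were. There TMP195 replicates 1 to 3 are in the batch of 5 and no Combo library is. For those pairs treatment and batch cannot be told apart, and they also enter the mean of the 4 lines. Against MYCi975 1.03% of all genes were called lower in H1703, 0.292% in H460, 0.00495% in H1755 and 0% in H838, and against TMP195 2.97%, 1.17%, 0% and 0% in the same order of lines. Before adjustment 7, 0, 5 and 0 of the 58 had p below 0.05 against MYCi975 in H460, H838, H1703 and H1755. Against TMP195 these counts were 7, 7, 12 and 0, and the share of all genes is given for neither comparison. For Combo against TMP195 DESeq2 called 1 lower and 1 higher in H1703, with 5.08% of all genes lower, and 0 in the other lines. For the 58 genes the medians in the mean of the 4 lines were both -0.06. The change under Combo minus the sum of both single-agent changes had a median of 0.06 and was called for 0 of the 58, in the mean of the 4 lines and in each line, by edgeR, where 0% of all genes were called in the mean. Before adjustment 1 of the 58 had p below 0.05 in the mean of the 4 lines. By line the count was 3 in H838, 2 in H1703, 1 in H460 and 0 in H1755. The share of all genes below that p is not given, and DESeq2 called 0 of the 58 throughout. Over all genes the change beyond the sum was called for 30 of 20827 in H1703 (0.144%) and 0 elsewhere.

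Read counting limited 4 of the genes, in H460 and in the other lines. NOP2, PPAN, DDX47 and PA2G4 share exons with other annotated genes, on the same strand for the first 3 and on both strands for PA2G4, over 54.4%, 59.8%, 36.5% and 23.5% of their exon bases. NOP2, a ribosomal RNA methyltransferase, was at 126 to 160.5 CPM in the 7 H460 libraries that counted overlapping reads, against 3.82 to 5.96 CPM in the other H460 libraries. PPAN, a large subunit factor, was at 24.7 to 35.7 CPM in the 7, against 2.50 to 5.91 CPM in the others. DDX47 was at 42.8 to 48 CPM and PA2G4 at 359 to 441.6 CPM in the 7. In the other lines NOP2 was at 0.964 to 8.44 CPM, PPAN at 2.275 to 9.28, DDX47 at 0.116 to 2.815 and PA2G4 at 46.4 to 146. Outside the 7 libraries reads in shared exons may be left out, so low levels of these 4 genes may be undercounts in every line. Their ranks and line ratios depend on the counting. The remaining 54 genes had a ratio between the 7 and the other H460 libraries of 0.837 to 1.38. With 1 of the 4 Combo libraries and 2 of the 4 Vehicle libraries of H460 among the 7, NOP2 changed by -1.10 under Combo in H460 without the batch term and by -0.27 with it. DDX47, a helicase, changed by -0.92 and 0.09, PPAN by -0.91 and -0.13, and PA2G4 by -0.54 and -0.23. None of these 4 passed the test in H460 without the batch term, and without them 33 of 54 genes fell under Combo in the mean of the 4 lines.

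**Figure D4:**
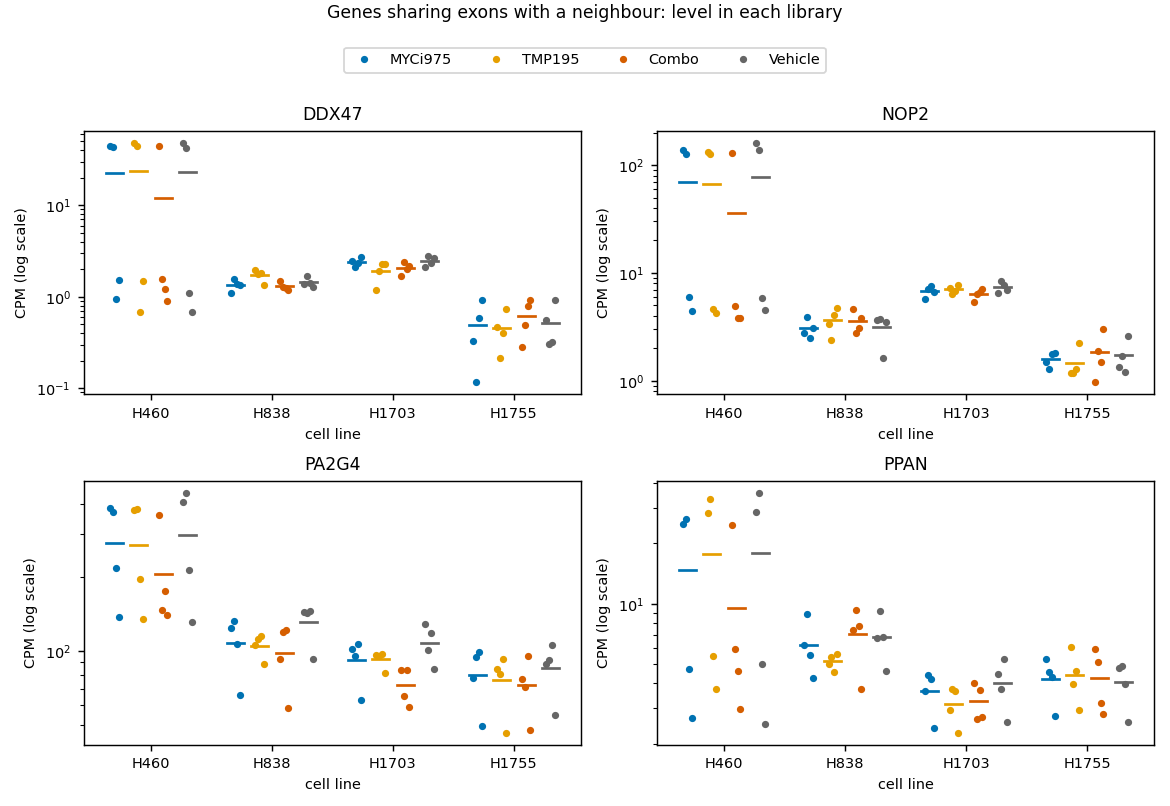
CPM (y axis, log scale) of the 4 genes that share exons with a neighbour, in each library (points, replicates 1 to 4 from left to right) with group means (lines), by cell line and treatment in the order MYCi975, TMP195, Combo, Vehicle. In H460 the 7 overlap-counted libraries stand above the others for each gene, with 1 such point for Combo and 2 for each other group.

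Other genes of the pathway, from lists of the same machinery, were counted in the same fit for Combo, with no test between lists. Of 31 other small subunit factors 12 fell and 0 rose (median -0.12), with DHX37 at -0.43 and TBL3 at -0.26. Of 46 other large subunit factors 18 fell and 3 rose (median -0.14): RRP1B fell by 0.33 and NOC2L by 0.34, while RSL24D1 rose by 0.47 (adjusted p = 3.01e-07). Of 13 other exosome subunits and cofactors 5 fell and 1 rose. Among 15 RNA polymerase I subunits and factors 2 fell, POLR1A, the largest subunit, by 0.33 and UBTF, the upstream binding factor, by 0.42, and the median was -0.11. Of 81 cytosolic ribosomal protein genes tested, 1 fell, RPS26, and 6 rose, and their median was 0.05. These counts are from the mean of the 4 lines, where the 58 genes gave 34 and 0. There 11.8% of all genes tested were called lower and 13.6% higher. The RNA polymerase I count is near that share, and the ribosomal protein counts are below it in both directions.

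**Figure D5:**
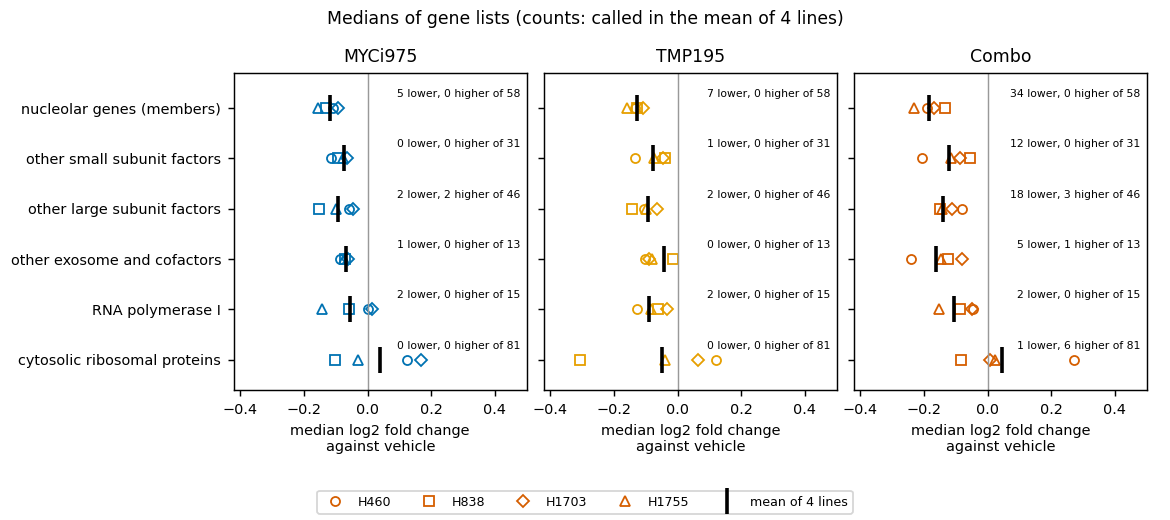
Median log2 fold change against vehicle (x axis) of the 58 genes and of 5 other lists (y axis) under MYCi975, TMP195 and Combo, in each line (open symbols) and in the mean of 4 lines (black bars). The text in each panel gives the genes called lower and higher in the mean of 4 lines; the 58 genes have medians below 0 in every line and treatment, and cytosolic ribosomal protein genes lie on both sides of 0.

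The genes were also counted by these promoter letters, and the difference between the sets was not tested. Of the 18 genes with CACGTG in the window 12 fell under Combo in the mean of the 4 lines, with a median of -0.18. Of the 30 with a window and no CACGTG 16 fell, with a median of -0.18, and of the 10 without a window 6 fell, with a median of -0.19. MRTO4 and UTP20, shown above, were among the first set, as was NOP10, which did not fall. NOL11, GRWD1 and NOL9 held no CACGTG in these windows.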

How the data were processed

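The 64 samples were sequenced after stranded preparation of total RNA, per the labels' protocols. The authors deposited raw read counts per gene for every library. The submitters' processing notes name Trimmomatic, STAR, featureCounts and GRCh38; versions, annotation release, strand setting and the treatment of reads shared between genes are not given in the sources used here. Library totals were 17352066 to 34236552 counts, and low counts limit precision for the least expressed genes.

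Counts were analysed in R 4.3.3 with edgeR 4.0.16 (limma 3.58.1), using filterByExpr, TMM scaling and the quasi-likelihood test with Benjamini-Hochberg adjustment over all genes tested, at a threshold of 0.05. Each line was fitted alone with 4 group means over its 16 libraries. A fit of all 64 libraries with 16 group means gave the change averaged over the 4 lines and the line-by-treatment F test. A standard error is the size of the log2 change over the root of its F. DESeq2 1.42.0, RLE size factors, no filter, a library batch term, a replicate block, subsets of libraries and leaving out each replicate were alternatives. The fits were tested on simulated data. Levels between genes are CPM per kilobase of exon. Figures used Python 3.11.15 and matplotlib 3.10.9.

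The 58 genes and the other lists were chosen with earlier results of these data known. Named genes are, in each role, the 2 most abundant per kilobase in vehicle and the 3 with the smallest Combo p, then the largest called change in each line and treatment, the 6 called in the most lines, the 3 with the smallest line-difference p per treatment, and the largest and smallest difference between vehicle lines; others were named after their values were seen. The settings without the overlap-counted libraries and without the batch of 5 were chosen after seeing the data. Same-numbered libraries were taken as paired where every correlation of their deviations exceeded 0.1. This held for MYCi975 and TMP195 in H460 and H1703, TMP195 and Combo in H838, and all comparisons in H1755. Library batches were read from the column names and counts; replicate number and batch overlap.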

Additional observations from a re-analysis of the deposited data

Results flagged for a closer look

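In 5 of 160 groups of 4 libraries examined, covering 9 genes and the summed level, 1 library stood far from the other 3. Chance alone marks about 1 in 20 such groups. GRWD1 in H1755 was at 75.8 CPM in TMP195 replicate 4, against 112.5 to 119.5 CPM in the other TMP195 libraries, and at 91.5 CPM in Vehicle replicate 4, against 134.5 to 141.8 CPM in the other vehicle libraries. NOL11 in H1703 was at 219.8 CPM in Combo replicate 3, against 278 to 282.6 CPM in the other Combo libraries. UTP20 in H460 was at 670.2 CPM in Vehicle replicate 4, against 480.6 to 511.6 CPM. NOL6 in H1755 was at 137.5 CPM in Vehicle replicate 3, against 106.2 to 111.4 CPM. All replicates numbered 4 belong to 1 library batch, whose part in the 3 values from replicate 4 was not tested.

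The Combo change of NPM1 differed between the lines by the test of the line-by-treatment term (adjusted p = 0.00972, edgeR), with a change of 0.28 in H1703 and changes of -0.41, -0.31 and -0.17 in H838, H1755 and H460.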

How the results depend on the processing

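Numbers of the 58 genes called, in either direction, moved with the terms for batch and pairing. A count given in this section without the share of all genes called shows only that it moved, not that these genes stood out. With the replicate block they were 34 for MYCi975, 36 for TMP195 and 43 for Combo in the mean of the 4 lines, all lower, where 10.2%, 9.94% and 18.5% of all genes were called lower. By line the block gave 1, 14 and 22 for MYCi975 (H460, H1703, H1755), where 1.59%, 12.1% and 4.51% of all genes were called lower. It gave 6, 2, 11 and 24 for TMP195 (H460, H838, H1703, H1755), where 1.36%, 3.65%, 10.9% and 5.02% were. For Combo it gave 25, 19, 31 and 43 in the same lines, where 14.4%, 6.57%, 24.8% and 12.3% were. Of the H1703 counts 1, 2 and 5 were rises under MYCi975, TMP195 and Combo. For Combo against MYCi975 the block gave 14 in the mean and 2, 8 and 2 in those 3 lines of the MYCi975 comparison, and for Combo against TMP195 18 in the mean and 8, 3, 12 and 2 by line. Line differences with the block numbered 7 for TMP195 and 15 for Combo. In H460 and H1703 the Combo libraries did not pair by number, so those counts rest on shared numbers only.

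With the library batch term the counts were 28, 14 and 2 for MYCi975 in the mean, H1703 and H1755, where 9.46%, 11.5% and 0.757% of all genes were called lower. They were 19, 6, 9 and 1 for TMP195 in the mean, H460, H1703 and H1755, where 6.3%, 1.21%, 10.4% and 1.49% were. For Combo they were 26, 19, 24 and 24 in H460, H838, H1703 and H1755, where 14.5%, 8.36%, 22.4% and 6.98% were. Of the H1703 counts 2, 1 and 4 were rises under MYCi975, TMP195 and Combo. The same term gave 9, 2 and 1 for Combo against MYCi975 and 12, 9 and 5 for Combo against TMP195 in the mean, H460 and H1703. It gave 10 for the Combo line difference, which was 2 with RLE size factors. The first batch alone gave 11 for TMP195 in H1703, and 3 and 8 for Combo in H838 and H1755. In H460 it holds 1 library of each group but Combo, so its counts for H460 and for the mean are not given. Its median for MYCi975 in H460 was 0.036, with 1 library a group, against -0.11 in all libraries. Without the overlap-counted libraries the counts were 3 for MYCi975 (1.25% of all genes lower) and 2 for TMP195 in the mean, and 0 in H460 for TMP195 and for Combo. Without H1703 they were 1, 1 and 21 for MYCi975, TMP195 and Combo in the mean, without H460 2 for TMP195, without H838 21 for Combo, and without the batch of 5 libraries 2 for TMP195.

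DESeq2 called 4 and 6 for TMP195 in H460 and H1703, where it called 0.396% and 5.51% of all genes lower. It called 12, 2 and 5 for Combo in H460, H838 and H1755, where it called 8.08%, 2.16% and 1.36% lower. For Combo against TMP195 in H1703 it called 2, where 5.08% of all genes were lower. No filter on low counts gave 3 for MYCi975 in H1703, 3 and 0 for TMP195 in the mean and H460, and 22 for Combo in the mean. A single fit of all libraries gave 2 for MYCi975 in H1703, 0 and 1 for TMP195 in H460 and H1703, and 4, 9 and 2 for Combo in H838, H1703 and H1755. The cause of these moves was not tested.

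Leaving out replicates gave 1 to 8 genes for MYCi975 in the mean and 0 to 5 in H1703. For TMP195 it gave 1 to 17 in the mean, 0 to 1 in H460, 0 to 11 in H838 and 0 to 4 in H1703. For Combo it gave 13 to 35 in the mean, 1 to 14 in H460, 0 to 4 in H838, 9 to 25 in H1703 and 0 to 8 in H1755. Against MYCi975, Combo had 0 to 9 in the mean, 0 to 2 in H460 and 0 to 9 in H1703, and against TMP195 1 to 6 in the mean, 0 to 8 in H838 and 0 to 5 in H1703. The change beyond the sum gave 0 to 4 in H838. Line differences numbered 0 to 3 for Combo and 0 to 2 for TMP195, and vehicle differences between lines 48 to 56.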
